A study of Mus musculus with 6 samples.

Results

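RNA typical of macrophages and other leukocytes was followed in sorted lung endothelial cells (ECs). For this, 46 genes were chosen by symbol for what they are known to mark, with earlier results of these data known. They comprised 27 macrophage genes, 12 genes expressed across leukocytes (pan-leukocyte) and 7 genes of alveolar macrophages or neutrophils. All 46 had a probe set on the array that the platform annotation assigns to that symbol alone, and each gene was read from the brightest of these (highest mean of 6 arrays), so that 46 of 18193 measured genes were described. The cells came from NSG mice, which have no mature lymphocytes or natural killer cells, aged 6 to 8 weeks when MDA-MB-231-LM2 cells, a lung-metastatic derivative of a human breast cancer line, were given through the tail vein. Clodronate-liposome (3 arrays), which kills the phagocytes that ingest it, or PBS-liposome (3 arrays), its empty control, was injected intravenously on days 14, 16 and 18, and lungs were taken on day 20. The sources differ on the volume injected, which is not given here. Both groups therefore carried metastases and received liposomes. ECs were sorted as CD31-positive cells after negative selection. According to the methods, this removed leukocytes by CD45 and CD11b, epithelium by EpCAM, stroma by CD140a and CD140b, and tumor cells by GFP. The labels call the replicates biological without saying how many mice each one held.

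Macrophages of the lung derive from embryonic precursors and from blood monocytes, and most live on signals through the receptor for macrophage colony-stimulating factor or, in the alveoli, for GM-CSF. They take up particles through scavenger, Fc and lectin receptors, signal through adaptors with immunoreceptor tyrosine-based activation motifs (ITAMs), and degrade their cargo in lysosomes rich in cysteine proteases. Most of these products are typical of hematopoietic cells, although some, such as Mertk, are also made by ECs, and cells that carry CD45 or CD11b on their surface were gated out of these samples.

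Values are log2 signals, on which a difference of 1 is a doubling, and every difference is clodronate-liposome minus PBS-liposome. Arrays are given in the order of replicates 1, 2 and 3 within each group. The label of the cells was checked first. All 12 endothelial markers had overlapping groups, with a median difference of 0.056 and a range from -0.062 to 0.17. Pecam1, which encodes CD31, gave 13.70, 13.53 and 13.64 after clodronate-liposome, against 13.57, 13.50 and 13.58 after PBS-liposome. Genes of the other negative-selection markers differed by -0.13 (Epcam), -0.19 (Pdgfra) and -0.27 (Pdgfrb), none passed the adjusted threshold, and only Pdgfrb had separate groups. The hybridization controls added by the manufacturer averaged 11.91, 12.20 and 11.94 after clodronate-liposome and 12.11, 12.24 and 12.12 after PBS-liposome, and their part in the differences was examined only as a covariate. Probe sets for 18S RNA averaged 13.01, 12.33 and 12.998 after clodronate-liposome and 12.63, 12.39 and 12.56 after PBS-liposome, so that clodronate-liposome replicates 1 and 3 stood above the other arrays, and the part of this in the differences was not tested.

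Macrophage and leukocyte transcripts were mostly lower after clodronate-liposome, by small amounts. The difference was below 0 for 34 of the 46 genes, which is 73.9% where 50.9% of all genes were below 0. Over the 46 genes the median difference was -0.12, beside -0.0031 over all genes. Single genes seldom stood out beyond the spread between replicates. After adjustment over all probe sets in limma, 1 gene was lower, Adgre4 (adjusted p = 0.0331), where 0.346% of all genes were lower, and 0 were higher, where 0.0879% of all genes were higher. That call ended with any 1 array left out, with hybridization controls as a covariate (limma adjusted p = 0.157) and with the replicate number as a block (limma adjusted p = 0.0825). At an unadjusted limma p under 0.05, 13 genes were lower (28.3%, against 5.49% of all genes) and 1 was higher (Siglecf, with 4.54% of all genes higher). All 3 clodronate-liposome arrays lay below all 3 PBS-liposome arrays for 15 genes, or 32.6% where the same held for 8.75% of all genes. The reverse held for 1 gene, Siglecf, or 2.17% where it held for 7.49% of all genes. By each of these rules the share of lower genes was above that of all genes and the share of higher genes below it. The genes had been chosen with earlier results of these data known, so these shares describe the list and test nothing. The other 30 genes had overlapping groups, and 30 of the 46 differed by less than 0.3 in either direction. In these bulk samples, fewer cells of a type, less RNA per cell and a change in the expression of the ECs themselves cannot be told apart.

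**Figure D1:**
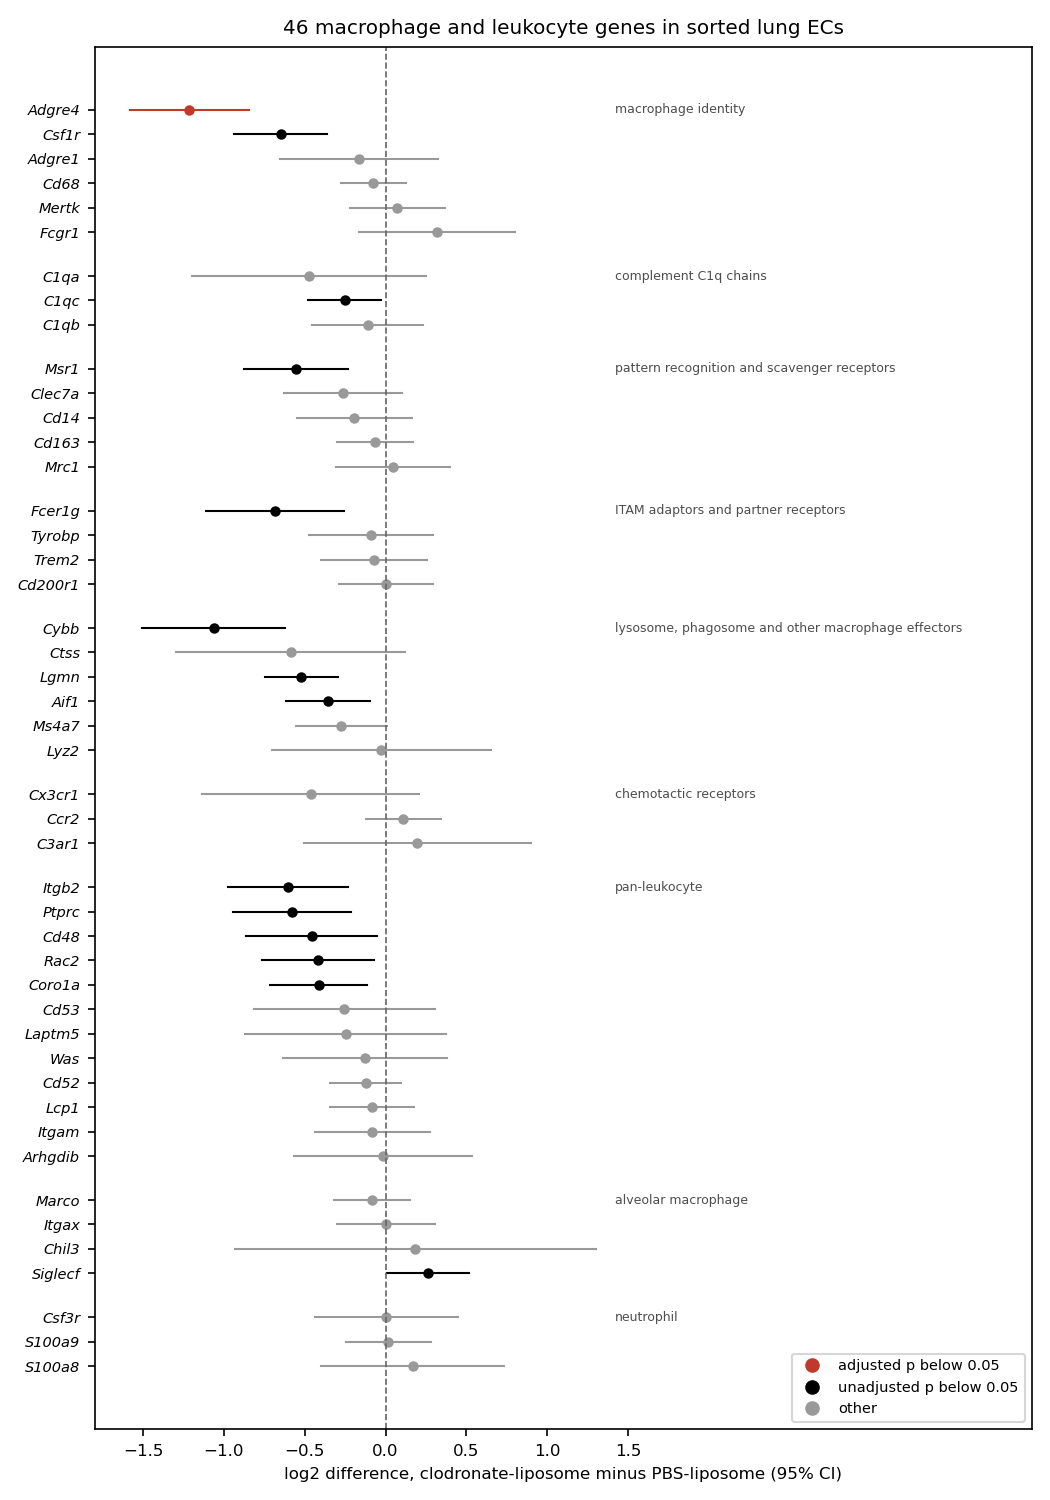
Log2 difference, clodronate-liposome minus PBS-liposome, of the 46 genes (points) with the 95% confidence interval of the limma fit (lines, 3 arrays per group), ordered within groups by role. The interval of Adgre4 lies farthest from 0, all 12 pan-leukocyte points lie below 0, and those of alveolar macrophages and neutrophils lie around 0 in this fit without covariates.

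The groups by role did not all move to the same degree. The 6 lysosomal, phagosomal and other effector genes were all below 0 (median -0.44), as were the 3 complement C1q chains (median -0.25) and the 12 pan-leukocyte genes (median -0.25). Of the 5 pattern recognition and scavenger receptors 4 were below 0 (median -0.19), and of the 6 macrophage identity genes 4 (median -0.12). The group of ITAM adaptors, a partner receptor and the inhibitory receptor Cd200r1 had 3 of 4 genes below 0 (median -0.081). The medians of the 3 chemotactic receptors (0.11) and of the 7 alveolar macrophage and neutrophil genes (0.017) lay above 0, with 1 gene of each group below it. Together the 27 macrophage genes had a median of -0.19, with 21 below 0, and no difference between these groups was tested. Mean signals lay above the median of all probe sets for 21 of the 46 genes and for 0 of the 3 C1q chains. Whether signals under that median were above background was not assessed.

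Macrophage identity genes separated into those with and without a visible gap between groups. Adgre4, an adhesion receptor of the same family as F4/80, gave 6.87, 6.54 and 6.90 after clodronate-liposome, against 7.72, 8.01 and 8.23 after PBS-liposome. Every clodronate-liposome array lay below every PBS-liposome array, a difference of -1.21 (SE 0.16, limma adjusted p = 0.0331). Its second probe set gave 6.00, 6.10 and 6.65 after clodronate-liposome and 7.58, 8.20 and 8.15 after PBS-liposome, again without overlap, and differed by -1.72 (limma, adjusted p = 0.0312). With any 1 array left out, the brightest probe set differed by -1.35 to -1.09 and no longer passed (adjusted p from 0.0664 to 0.138). Whether the lower signals were above background was not assessed, since no detection calls were used here, so the differences are not given as folds.

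Csf1r encodes the receptor for macrophage colony-stimulating factor. It gave 8.09, 8.08 and 7.98 after clodronate-liposome, against 8.82, 8.46 and 8.81 after PBS-liposome. The groups did not overlap, and the clodronate-liposome arrays lay within 0.11 of each other. The difference of -0.65 (SE 0.12) did not pass after adjustment (limma, adjusted p = 0.101). Its other probe sets differed by -1.24 and -0.17, both with every clodronate-liposome array below every PBS-liposome array.

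Adgre1, which encodes the F4/80 antigen used to stain mouse macrophages, gave 7.16, 7.30 and 7.14 after clodronate-liposome and 7.31, 6.94 and 7.85 after PBS-liposome. Its PBS-liposome arrays spanned both sides of the clodronate-liposome arrays, and the difference was -0.17 (95% confidence interval -0.66 to 0.32), or 0.078 without PBS-liposome replicate 3. Cd68, a glycoprotein of late endosomes, gave 8.47, 8.42 and 8.42 after clodronate-liposome and 8.51, 8.50 and 8.52 after PBS-liposome. Those groups did not overlap either, yet their difference was only -0.075 (interval -0.28 to 0.13). Mertk, the receptor tyrosine kinase through which macrophages engulf apoptotic cells, gave 12.39, 12.08 and 11.99 after clodronate-liposome, against 12.11, 12.15 and 11.97 after PBS-liposome, an overlap around a difference of 0.073. Fcgr1, the high-affinity IgG receptor, gave 7.80, 8.42 and 8.13 after clodronate-liposome, against 7.40, 7.95 and 8.05 after PBS-liposome. Its groups overlapped at a difference of 0.32 (SE 0.21), and its other probe set differed in the opposite direction, by -0.23.

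Promoter sequence was read for the genes that RefSeq lists, because several of them share well-known regulators. PU.1, an ETS factor, specifies myeloid cells, and interferon-stimulated response elements (ISREs) bind interferon-activated factors. RefSeq (GRCm38.p6) gave 44 promoters for 36 of the 46 genes, each of 300 bases from 250 before to 50 after a transcript start, and both strands were searched. The PU.1 motif GAGGAAGT was found in 5 of the 44 (11.4%), where 3.2% of all 32851 promoters hold it. Its shorter ETS core, GGAAGT, which lies inside the PU.1 motif, was found in 22 of the 44, where 23.8% of all promoters hold it. An ISRE core, written as GAAA, any 2 bases and GAAA again, was found in 3 (6.82%, with 3.44% of all promoters), those of Aif1, Ctss and Cybb. The gamma-activated sequence TTCNNNGAA was found in 2 (4.55%, with 8.3% of all promoters) and the TATA box letters TATAAA in 10 (22.7%, with 13.6% of all promoters). A match describes letters and not a bound site. The stretches around the matches are shown for Adgre4 and Cybb, which had the greatest differences of the 46 genes, and for Ctss and C1qc, a protease and a complement chain that hold the PU.1 motif. They were chosen after their values had been seen. Capitals mark the matches on either strand. In Adgre4 (chr17:55750009-55750033, plus strand) the PU.1 motif begins 41 bases after the start. In Cybb (chrX:9469325-9469504, minus strand) 3 ISRE cores begin 168, 124 and 29 bases before the start. In Ctss (chr3:95526726-95526795, plus strand) an ISRE core begins 21 bases before the start and the PU.1 motif 2 bases before it. In C1qc (chr4:136893065-136893144, minus strand) the PU.1 motif begins 195 bases before the start.
Adgre4: agataagcagtggtgcACTTCCTCc
Cybb: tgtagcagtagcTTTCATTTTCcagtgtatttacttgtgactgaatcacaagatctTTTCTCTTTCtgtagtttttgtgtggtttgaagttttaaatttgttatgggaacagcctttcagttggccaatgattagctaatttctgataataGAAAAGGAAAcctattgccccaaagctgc
Ctss: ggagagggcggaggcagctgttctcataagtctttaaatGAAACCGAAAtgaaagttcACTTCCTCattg
C1qc: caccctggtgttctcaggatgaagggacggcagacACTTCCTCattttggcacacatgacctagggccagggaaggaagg

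Among effector genes, Cybb and Lgmn had the widest gaps between groups. Cybb, the catalytic subunit of the phagocyte NADPH oxidase, gave 7.31, 7.78 and 7.87 after clodronate-liposome, against 8.43, 8.69 and 9.01 after PBS-liposome. Its groups lay more than 0.5 apart at their nearest arrays, and the difference of -1.06 (SE 0.19) had the second smallest p of the 46 genes (limma, adjusted p = 0.0871). The other Cybb probe sets differed by -0.45 and -0.78. Lgmn, the lysosomal asparaginyl endopeptidase legumain, gave 9.42, 9.36 and 9.39 after clodronate-liposome, against 9.83, 9.86 and 10.04 after PBS-liposome. The replicates of each group were close together for this gene, and the difference was -0.52 (SE 0.10, limma adjusted p = 0.101). Aif1, the actin-binding protein IBA1, gave 6.97, 6.71 and 6.65 after clodronate-liposome, against 7.21, 7.10 and 7.09 after PBS-liposome, without overlap (difference -0.36, limma adjusted p = 0.292).

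Of the remaining effectors, Ctss and Lyz2 were more variable. Ctss, the lysosomal cysteine protease cathepsin S, gave 8.82, 10.03 and 9.43 after clodronate-liposome, against 9.75, 9.84 and 10.46 after PBS-liposome. Its clodronate-liposome replicate 2 stood above the lower PBS-liposome arrays, so that a difference of -0.59 had an SE of 0.31, and it was -0.23 with hybridization controls as a covariate. Lyz2, lysozyme, gave 10.26, 11.12 and 10.85 after clodronate-liposome, against 10.67, 10.30 and 11.34 after PBS-liposome. These ranges overlapped almost fully, and the difference was -0.026 (interval -0.70 to 0.65), or 0.26 without PBS-liposome replicate 3. Ms4a7, a membrane protein of mature macrophages, differed by -0.27 without overlap, and its other probe set by 0.039.

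**Figure D2:**
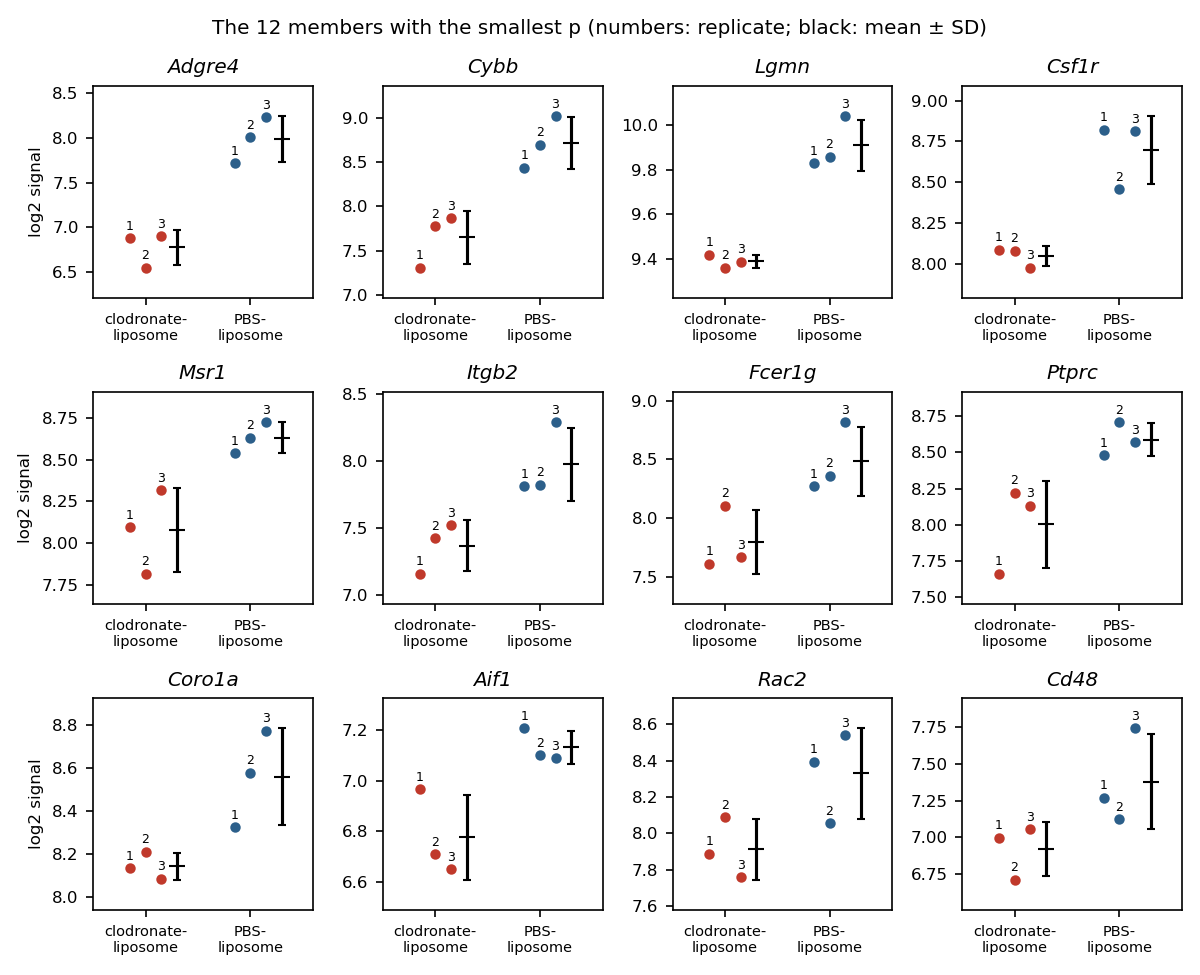
Log2 signal on each array for the 12 genes with the smallest unadjusted limma p. Red points are the 3 clodronate-liposome arrays (left), blue points the 3 PBS-liposome arrays (right), numbers the replicates, and black bars the mean ± SD (n = 3 each). In 11 panels every red point lies below every blue point, and in Rac2 the groups overlap.

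Receptors that recognize particles and debris showed 1 gene with a clear gap. Msr1, the class A scavenger receptor, gave 8.10, 7.82 and 8.32 after clodronate-liposome, against 8.54, 8.63 and 8.72 after PBS-liposome. No array crossed over, and the difference was -0.55 (SE 0.14, limma adjusted p = 0.188). Its other probe sets differed by -0.045, -0.55 and -0.33. Cd14, the co-receptor for lipopolysaccharide, gave 10.52, 10.33 and 10.15 after clodronate-liposome and 10.76, 10.26 and 10.56 after PBS-liposome, where PBS-liposome replicate 2 lay among the clodronate-liposome arrays (difference -0.19, SE 0.15). The beta-glucan receptor Clec7a (-0.26, or -0.023 with that covariate), the hemoglobin scavenger Cd163 (-0.066) and the mannose receptor Mrc1 (0.047) all had overlapping groups.

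The C1q chains form the recognition molecule of the classical complement pathway and come largely from tissue macrophages. C1qa gave 7.29, 7.22 and 6.60 after clodronate-liposome, against 8.04, 6.82 and 7.68 after PBS-liposome. Its PBS-liposome replicate 2 lay within the clodronate-liposome range, and the difference was -0.47 (SE 0.31). C1qc differed by -0.25 without overlap (SE 0.10, limma adjusted p = 0.403) and C1qb by -0.11 with overlap, its other probe sets by -0.30 and -0.22.

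The shared signaling chains of Fc and lectin receptors are given side by side, and no difference between them was tested. Fcer1g, the common gamma chain of Fc receptors, gave 7.61, 8.11 and 7.67 after clodronate-liposome, against 8.27, 8.36 and 8.82 after PBS-liposome. The groups were separate, with a difference of -0.69 (SE 0.18, limma adjusted p = 0.212). Tyrobp, the adaptor DAP12, gave 7.52, 7.40 and 7.56 after clodronate-liposome and 7.35, 7.43 and 7.97 after PBS-liposome. All clodronate-liposome arrays of this gene lay inside the PBS-liposome range, the difference was -0.090 (interval -0.48 to 0.30), and it was 0.10 without PBS-liposome replicate 3. Trem2, a lipid receptor that signals through DAP12, differed by -0.072 (other probe set -0.0052) and the inhibitory receptor Cd200r1 by 0.0034 (other probe set 0.090), both with overlap. Of the chemotactic receptors, Cx3cr1, the fractalkine receptor, differed by -0.46 (SE 0.29), Ccr2, which recruits classical monocytes, by 0.11 and C3ar1, the receptor for complement C3a, by 0.20 (SE 0.30). None of the 3 had separate groups in its brightest probe set. Other probe sets of Ccr2 differed by -0.099, -0.046 and 0.022 and those of C3ar1 by 0.20 and -0.13.

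Pan-leukocyte genes were all below 0 over the 6 arrays, including those of surface antigens used for negative selection. With 1 array left out, 6 of the 12 turned above 0 (Cd53, Laptm5, Lcp1, Was, Itgam and Arhgdib), 4 of them without PBS-liposome replicate 3. Ptprc, which encodes CD45, gave 7.66, 8.22 and 8.13 after clodronate-liposome, against 8.48, 8.71 and 8.57 after PBS-liposome. The groups did not overlap, and the difference was -0.58 (SE 0.16, limma adjusted p = 0.217), although its other probe set differed by -0.053. Itgam, which encodes CD11b, gave 6.85, 6.32 and 6.61 after clodronate-liposome and 6.85, 6.54 and 6.64 after PBS-liposome. These ranges overlapped, with a difference of -0.083 (interval -0.44 to 0.27). Itgb2, the beta 2 integrin chain that pairs with CD11b and other alpha chains, gave 7.16, 7.43 and 7.52 after clodronate-liposome, against 7.81, 7.82 and 8.29 after PBS-liposome. Here all clodronate-liposome arrays were lower (difference -0.61, SE 0.16, limma adjusted p = 0.207).

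The other pan-leukocyte genes with an unadjusted p under 0.05 encode cytoskeletal regulators and an adhesion ligand. Coro1a, the actin regulator coronin 1A, gave 8.13, 8.21 and 8.09 after clodronate-liposome, against 8.32, 8.58 and 8.77 after PBS-liposome, and differed by -0.41 (limma adjusted p = 0.281), with its other probe sets at -0.31 and -0.47. Cd48, a ligand of signaling lymphocyte activation family receptors, gave 6.999, 6.71 and 7.06 after clodronate-liposome, against 7.27, 7.12 and 7.74 after PBS-liposome (difference -0.46, limma adjusted p = 0.397). Both were separate between groups. Rac2, a small GTPase of hematopoietic cells, gave 7.89, 8.09 and 7.76 after clodronate-liposome, against 8.40, 8.05 and 8.54 after PBS-liposome, so that clodronate-liposome replicate 2 and PBS-liposome replicate 2 crossed over (difference -0.42, limma adjusted p = 0.360). Its other probe set differed by -0.0093. The remaining 6 genes differed by -0.26 (Cd53, a tetraspanin), -0.25 (Laptm5, a lysosomal membrane protein), -0.13 (Was, an activator of actin assembly), -0.12 (Cd52, a surface peptide of lymphocytes and monocytes), -0.084 (Lcp1, the actin bundler L-plastin) and -0.017 (Arhgdib, an inhibitor of small GTPases), of which only Cd52 had separate groups. Other probe sets of Laptm5 differed by -0.12 to 0.13, that of Cd53 by -0.093 and that of Lcp1 by -0.21.

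Genes that mark alveolar macrophages or neutrophils had a median near 0, which was -0.13 with hybridization controls as a covariate and was not tested against the other genes. Siglecf, a sialic acid-binding receptor of alveolar macrophages and eosinophils, gave 6.14, 6.20 and 6.26 after clodronate-liposome, against 5.95, 5.77 and 6.09 after PBS-liposome. It was the only one of the 46 genes with every clodronate-liposome array above every PBS-liposome array (difference 0.26, SE 0.11, limma adjusted p = 0.447). The lowest value on any array was 5.36, and whether the Siglecf signals were above background was not assessed. Chil3, the chitinase-like protein Ym1, gave 8.31, 7.48 and 9.04 after clodronate-liposome and 7.88, 7.37 and 9.04 after PBS-liposome, a spread within groups (SE 0.48) that was larger than its difference of 0.18, and with that covariate the difference was -0.49. The scavenger receptor Marco differed by -0.085 (other probe set -0.21, without overlap) and Itgax, which encodes CD11c, by 0.0030. S100a8, a calcium-binding protein abundant in neutrophils, gave 8.69, 7.80 and 7.96 after clodronate-liposome and 7.83, 7.79 and 8.33 after PBS-liposome, with overlap and a difference of 0.17. Its partner S100a9 differed by 0.017 and Csf3r, the receptor for granulocyte colony-stimulating factor, by 0.0037, and both turned below 0 with the covariate.

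More than 1 probe set was available for 19 of the 46 genes, which allowed the same transcript to be read repeatedly on the same arrays. In 14 of these genes all probe sets differed in the same direction, which was lower for 13 and higher for Cd200r1. The other 5, Fcgr1, C3ar1, Ccr2, Laptm5 and Ms4a7, had probe sets of both signs. Of all 77 probe sets of the 46 genes 58 were below 0, and the 2 past the adjusted threshold were both of Adgre4. When the probe sets of each gene were averaged before the fit, Adgre4, Csf1r (limma adjusted p = 0.0174) and Lgmn (limma adjusted p = 0.0436) passed, where 0.627% of all genes were lower past the threshold in that fit. Lgmn has 1 probe set and an unchanged difference. That fit tests genes rather than probe sets and estimates the variances anew, and their parts in the changed adjusted p were not separated.

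**Figure D3:**
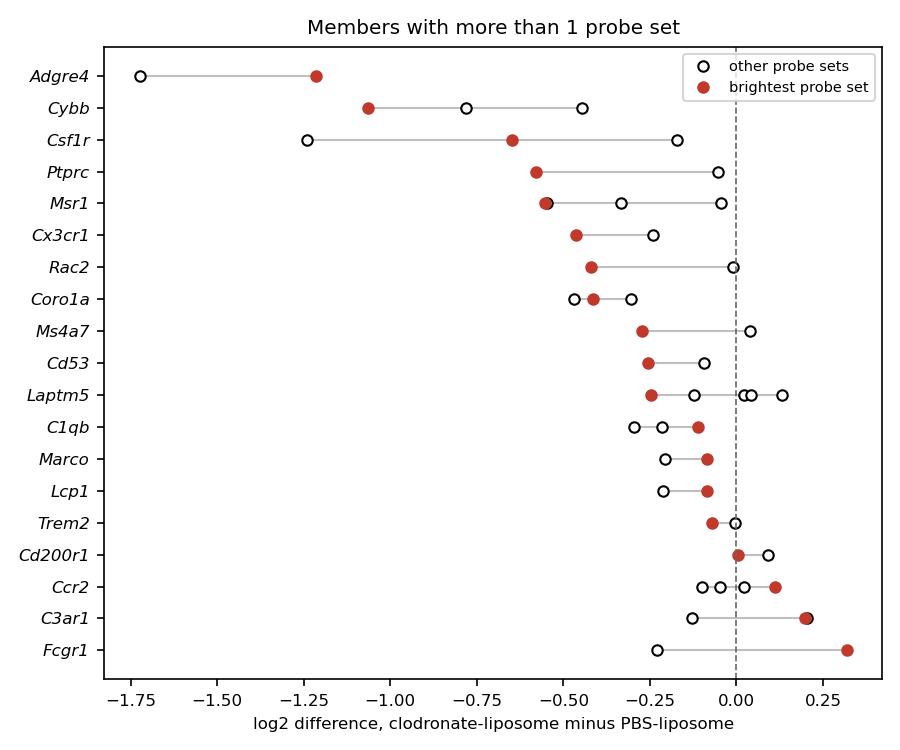
Log2 difference, clodronate-liposome minus PBS-liposome, of every probe set of the 19 genes that had more than 1. Filled points are the brightest probe set of the gene and open points the others, with 0 dashed. Both Adgre4 probe sets lie below -1, the 3 of Csf1r run from -1.24 to -0.17, and Fcgr1 lies on both sides of 0.

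The arrays within a group were not equal for these genes. PBS-liposome replicate 3 was the highest of the 6 arrays for 25 of the 46 genes (54.3%), where it was highest for 14.6% of all genes. Among the 12 pan-leukocyte genes it was highest for 10, and among the 27 macrophage genes for 14. Relative to the mean of 6 arrays, the pan-leukocyte genes averaged -0.12, -0.12 and -0.19 on the clodronate-liposome arrays and -0.031, 0.054 and 0.40 on the PBS-liposome arrays. The macrophage genes showed the same high array, with averages of -0.20, -0.024 and -0.19 after clodronate-liposome and 0.10, 0.0055 and 0.30 after PBS-liposome. PBS-liposome replicate 3 thus carried the highest level of both, while the endothelial markers averaged 0.0092 on it. Without that array 27 of the 46 genes were below 0, with 50.9% of all genes below 0. The medians were then -0.18 for macrophage and -0.11 for pan-leukocyte genes. At an unadjusted limma p under 0.05, 10 genes were lower (21.7%, with 4.67% of all genes). Separate groups in the lower direction then held for 15 genes, with 13.1% of all genes. Without clodronate-liposome replicate 3 the pan-leukocyte median was -0.14, and without PBS-liposome replicate 1 it was -0.40. The unadjusted limma p of Adgre4, Cybb, Lgmn, Csf1r, Msr1, Itgb2, Fcer1g, Ptprc and Coro1a stayed under 0.05 whichever array was left out, with 0.0460 for Coro1a as the highest. The spread between replicates was also wider for the 46 genes, with a median SD of 0.184 after clodronate-liposome and 0.233 after PBS-liposome, beside 0.134 and 0.118 over all genes in the same order of groups.

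**Figure D4:**
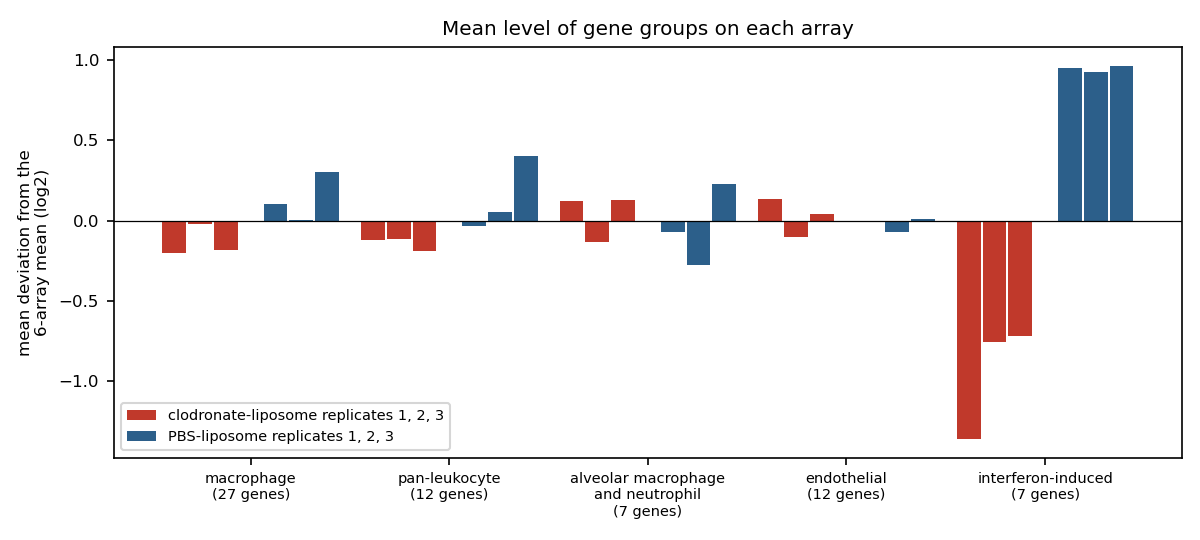
Mean deviation of each gene group from its mean over 6 arrays (log2), with clodronate-liposome replicates 1, 2 and 3 in red on the left of each cluster and PBS-liposome replicates 1, 2 and 3 in blue on the right. PBS-liposome replicate 3 is the highest bar for macrophage (0.30), pan-leukocyte (0.40) and alveolar macrophage and neutrophil (0.23) genes. The bars of interferon-induced genes are -1.36, -0.76 and -0.72 after clodronate-liposome and 0.95, 0.93 and 0.97 after PBS-liposome.

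Other genes of mononuclear phagocytes outside the 46 were read from a separate list. Of 31 measured 22 were below 0 (median -0.16), 9 lower and 1 higher at an unadjusted p under 0.05, beside 50.9% of all genes below 0, 5.49% lower and 4.54% higher. The gene higher was Gpnmb, a lysosomal glycoprotein of lipid-laden macrophages and other cells. It gave 10.91, 10.62 and 10.73 after clodronate-liposome, against 9.84, 9.79 and 9.53 after PBS-liposome, and passed the adjusted threshold at 1.03 (SE 0.13, limma adjusted p = 0.0304). Csf2rb, the shared beta chain of the receptors for GM-CSF, IL-3 and IL-5, moved the other way, with 8.16, 8.92 and 8.44 after clodronate-liposome and 9.57, 9.80 and 10.22 after PBS-liposome (difference -1.36, limma adjusted p = 0.0670). Syk, the kinase downstream of ITAM adaptors, differed by -0.51 (limma adjusted p = 0.123). Spi1, which encodes PU.1, differed by -0.072 with overlap. Of 9 genes measured from a monocyte list 8 were below 0 (median -0.17), led by Treml4, a receptor of non-classical monocytes, at -0.66 without overlap (limma adjusted p = 0.0625). In this list Ace, Plac8 and Nr4a1 averaged 13.26, 12.66 and 10.91 after clodronate-liposome, where the endothelial marker Pecam1 averaged 13.62. The cells from which those signals came were not assessed. Csf1 and Il34, which encode both ligands of Csf1r, differed by 0.32 and -0.25 with overlapping groups.

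For scale, 7 interferon-induced genes were read on the same arrays, from a list chosen with earlier results of these data known. All 7 were lower past the adjusted threshold, where 0.346% of all genes were, with a median of -1.93. Irf7, a transcription factor of the interferon response, differed by -2.10 (limma adjusted p = 0.00687). Macrophages also express interferon-induced genes, and the part of leukocyte RNA in that difference was not tested.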

How the data were processed

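RNA of 6 samples, 3 per group, was hybridized to Affymetrix mouse whole-genome arrays. The authors had turned the scans into log2 values by robust multiarray averaging (background correction, quantile normalization and probe summary) and deposited these. The values were used as deposited, every array had a median of 8.13, and arrays have no read depth, so their number limits the precision. Of the probe sets, 45037 were tested after 64 manufacturer controls were set aside, and 34945 had 1 gene symbol in the platform annotation. Each gene was represented by its brightest probe set annotated to it alone.

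Differences were fitted with limma 3.58.1 in R 4.3.3 (lmFit, eBayes, two-sided, no covariate, no filter), following the study's methods, and p values were adjusted by Benjamini-Hochberg over all tested probe sets with a threshold of 0.05. Residual degrees of freedom were 4 and prior ones 3.90, and the steps were tested on simulated data. P values set the difference between group means against the spread between these samples, with variances moderated over all tested probe sets. Counts were read against the share of all genes that met the same rule.

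The 46 genes, the further lists (other mononuclear phagocyte, monocyte, Csf1r ligand, endothelial, negative-selection, dendritic cell, lymphocyte, platelet, further neutrophil, erythroid and interferon-induced genes) and the motifs were chosen with earlier results of these data known. Arrays are printed for the 12 genes with the smallest p and for fixed defining markers, other genes of the 46 by difference, and genes outside them by the smallest p of a list or as fixed markers. Other probe sets of the 46 genes are given where their sign is opposite or their size differs by over 2-fold. Ctss and Chil3 were given in more detail, and Ace, Plac8 and Nr4a1 by level, after their values had been seen. Alternatives were a filter on low signal, second quantile normalization, median centring, a replicate block, trended and robust variance, array weights, hybridization controls as a covariate, other probe set summaries and leaving out each array.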

Additional observations from a re-analysis of the deposited data

How the results depend on the processing

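The count of genes past the adjusted threshold, 1 among the 46, was 0 with a filter on low signal (Adgre4 lay under the limit and was not tested), 0 with hybridization controls as a covariate (adjusted p of Adgre4 = 0.157), 3 with the mean of all probe sets per gene, and 0 to 0 with any 1 array left out. It was also 0 with the replicate number as a block (adjusted p of Adgre4 = 0.0825). Same-numbered arrays of the groups correlated by 0.0751, 0.0699 and 0.0361 in their deviations, and differently numbered ones by -0.058 to -0.0065. The labels give the same-numbered arrays a shared number and no pairing. Each array correlated best with its own number, a hint from the data and not the design. The filter, at a mean signal of 8.12, kept 21 of the 46 genes, 7 of them above it in the PBS-liposome mean alone and 1 in the clodronate-liposome mean alone. These were therefore partly selected for being high there, and their counts and median support nothing. It left 8 genes lower at an unadjusted p under 0.05 (6.95% of all genes kept), 0 higher (5.94%), 8 lower without overlap (10.1%) and 0 higher without overlap (9.39%), and the macrophage median became -0.36. With the hybridization covariate 2 genes were higher at an unadjusted p under 0.05, the alveolar macrophage and neutrophil median was -0.13, and 7 of the 46 genes changed sign, Lyz2 (0.10), S100a8 (-0.13), Chil3 (-0.49), Csf3r (-0.20), S100a9 (-0.061), Cd163 (0.023) and Cd200r1 (-0.010). With 1 array left out, genes higher at an unadjusted p under 0.05 numbered 0 to 1, those lower 10 to 14 (4.13% to 7.003% of all genes), those higher without overlap 1 to 3 and those lower without overlap 15 to 22 (11.5% to 17.0% of all genes, against 8.75% with every array). The medians then ran from -0.27 to -0.13 for macrophage, -0.40 to -0.11 for pan-leukocyte, and -0.045 to 0.19 for alveolar macrophage and neutrophil genes, the last value without PBS-liposome replicate 3. For the counts of higher genes with the covariate or with 1 array left out, no share of all genes is given. Nothing is therefore read from those counts. The sign changed with an array left out for 19 of the 46 genes. Among the genes given by array, these differences ranged from -0.38 to 0.078 (Adgre1), -0.045 to 0.15 (Mertk), -0.26 to 0.26 (Lyz2, 0.21 without clodronate-liposome replicate 1), -0.21 to 0.10 (Tyrobp), -0.21 to 0.055 (Itgam, 0.0050 without PBS-liposome replicate 1), -0.10 to 0.34 (S100a8) and -0.20 to 0.65 (Chil3). None of the 19 had passed the adjusted threshold. Causes were not tested beyond the filter, which tests fewer genes, and the left-out arrays. Adgre4 lost its call in 8 of its 14 alternatives. The other genes given by array had no call to lose.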

Other observations

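Genes of other blood cells were read on the same arrays. Platelet genes were below 0 for 5 of 6 (median -0.19), and Itga2b, the platelet integrin alpha chain, was lowest in p with a difference of -0.56 (limma adjusted p = 0.163). Of 3 erythroid genes measured all were below 0 (median -0.49), with Slc4a1, the red cell anion exchanger, at -0.49 (limma adjusted p = 0.265). The 7 dendritic cell genes measured had a median of -0.0015, the 6 of T, B and natural killer cells a median of -0.11 and the 5 further neutrophil genes a median of -0.069, and none of these genes had an unadjusted limma p under 0.05. Of the 6 T, B and natural killer cell genes 5 were below 0, although these mice have no mature cells of those types. Whether those signals were above background was not assessed. The 4 genes for ligands of myeloid growth factor receptors had a median of 0.14.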
